A study of Mus musculus with 4 samples.

Results

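The genes described here encode the machinery of oxidative phosphorylation, read in the late-pregnant mouse uterus. They were taken by symbol, with a minimum level. Protein-coding genes entered when their GRCm38 symbol started with Nduf, Uqcr, Atp5, mt-Nd, mt-Co, mt-Cytb or mt-Atp, when it was Cox4 to Cox8 with a suffix, or when it was Sdha, Sdhb, Sdhc or Sdhd. Of 55421 genes in the files, 107 met these criteria, and 96 of them reached 1 CPM (counts per 1000000 counted read pairs) in at least 2 libraries, out of 14492 genes that did so. Of the 96 members, 88 lie in the nuclear genome and 8 in the mitochondrial genome.

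RNA-seq was performed on whole uteri of pregnant mice at E18.5, from 2 wildtype (WT, C57BL/6J) and 2 Qa2- animals. The Qa2- strain, B6.K1 or B6.Cg-H2b3/FlaCmwJ, is a C57BL/6-background H2 congenic line that lacks the genes for Qa-2, a non-classical MHC class I molecule. It therefore also differs from WT in whatever else came with the congenic interval. Matings were within strain and set up when the mice were 8 to 12 weeks old, so that in Qa2- pregnancies both mother and fetuses lacked Qa-2. Libraries held 33286390 to 41041299 counted read pairs, and 3 counts, taken as the limit of detection, corresponded to 0.0731 to 0.0901 CPM. The label check was clear: H2-Q6 had 4204 and 1192 counts in the WT libraries and 3 in each Qa2- library, and H2-Q7 had 6318 and 1251 in WT and 4 and 2 in Qa2-. Nothing states that the mothers of a group were born in different litters, and p-values therefore measure only the spread between these samples. All 9 markers of myometrium, the smooth muscle wall, were among the genes kept, whereas 1 of 8 trophoblast markers was. Of 10 striated muscle markers 4 were kept, and the list summed to 151 and 304 CPM in WT and 169 and 137 in Qa2-, with Myh1, Myh4, Myh6 and Myh7 at or under 3 counts in all 4 libraries. Of 6 adipocyte markers 2 were kept, with sums of 50.9 and 21.1 CPM in WT and 8.06 and 6.12 in Qa2- and with Ucp1 and Lep at or under 3 counts. The part of these cells in the results was not tested.

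Oxidative phosphorylation passes electrons from NADH and succinate through complexes I to IV of the inner mitochondrial membrane to oxygen, and ATP synthase, complex V, uses the resulting proton gradient to make ATP. Complexes I, III, IV and V are built from proteins of both genomes, while complex II is wholly nuclear-encoded and also works in the citric acid cycle. Mitochondrial DNA carries a small set of core subunits, read from long transcripts that are cut into single polyadenylated mRNAs. In the uterus of late pregnancy, the largest tissue by mass is the contractile smooth muscle of the wall, which draws its ATP from both glycolysis and respiration.

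Of the 13 mitochondrially encoded protein genes, 5 did not pass the filter. These were mt-Co2, mt-Co3, mt-Atp6, mt-Atp8 and mt-Nd4l, which encode subunits of complex IV, of ATP synthase and of complex I. They lie in a stretch of the mitochondrial genome (positions 6381 to 11042) that has a near-identical copy on chromosome 1 (GRCm38, minus strand, between 24611535 and 24616197), where 7 annotated pseudogenes match 7 mitochondrial genes. The deposited counts leave out read pairs that align equally well to more than 1 place. The sequences below show the edge of the copy and 2 of the genes inside it. They were taken from the GENCODE M21 transcripts of GRCm38, and capitals mark bases at which gene and copy differ.

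The first pair is mt-Co1 from its base 1054 to base 1133 (mitochondrial genome, 6381 to 6460) with Gm29216 (chr1:24616118-24616197), where the copy begins.
mt-Co1: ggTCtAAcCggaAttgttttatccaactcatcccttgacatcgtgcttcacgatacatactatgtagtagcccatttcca
Gm29216: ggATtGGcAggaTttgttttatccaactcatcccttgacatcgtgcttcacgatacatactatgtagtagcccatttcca
The second pair is the start of mt-Co2 (7013 to 7092) with Gm28661 (chr1:24615486-24615565), which shows a gene with no difference from its copy.
mt-Co2: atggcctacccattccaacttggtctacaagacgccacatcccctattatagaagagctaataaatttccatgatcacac
Gm28661: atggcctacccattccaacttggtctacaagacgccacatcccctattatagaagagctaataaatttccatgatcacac
The third pair is the start of mt-Nd3 (9459 to 9538) with Gm28438 (chr1:24613040-24613119). Nearly all of mt-Nd3 is covered by this copy, and mt-Nd3 still passed the filter.
mt-Nd3: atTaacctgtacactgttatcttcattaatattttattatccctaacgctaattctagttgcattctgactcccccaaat
Gm28438: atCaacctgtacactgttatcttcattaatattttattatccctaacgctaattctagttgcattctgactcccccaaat

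Counting from the first base of each mitochondrial gene, with its base first and the base of the copy last, mt-Co1 differed from Gm29216 by T1056A, C1057T, A1059G, A1060G, C1062A and A1066T, and the 479 bases after these were identical. The 681 aligned bases of mt-Co2, the 783 of mt-Co3, the 678 of mt-Atp6, the 294 of mt-Nd4l and the first 876 of mt-Nd4 had no mismatch to their copies. The mt-Nd3 gene had 1 mismatch in 345 bases (T3C). The mt-Atp8 gene lies in the same stretch, between copies, has no annotated copy of its own and was not aligned here. No copy on chromosome 1 was found for mt-Nd1, mt-Nd2, mt-Nd5, mt-Nd6 or mt-Cytb.

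The counts followed this map. Raw counts of mt-Co2 were 11 and 16 in WT and 19 and 4 in Qa2-, those of mt-Co3 were 14 and 14 against 9 and 9, and those of mt-Atp6 were 18 and 19 against 13 and 12. Their pseudogenes on chromosome 1 held more, with 362 and 406 (WT) and 501 and 152 (Qa2-) counts for Gm28661 and 874, 844, 901 and 577 for Gm10925 in the same order. The uncopied mt-Nd1 and mt-Cytb held 36113 to 131068 counts per library. For mt-Co2, mt-Co3, mt-Atp6, mt-Nd4l and mt-Nd3 the values are therefore no measure of the mRNA. The cause of the low counts of mt-Atp8, 0 to 3 per library, was not tested. Neither complex V nor mt-Co2 and mt-Co3 of complex IV can be described from the mitochondrial side. Of mt-Nd4, 63.6% of the transcript lies in the copy, and of mt-Co1 31.3%. Coverage inside and outside the copy was not measured. Per kilobase, the mean over the 4 libraries was 3394 CPM for mt-Co1 and 4941 when the same count was divided by the bases outside the copy alone, and 630.5 against 1732 CPM for mt-Nd4.

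**Figure D1:**
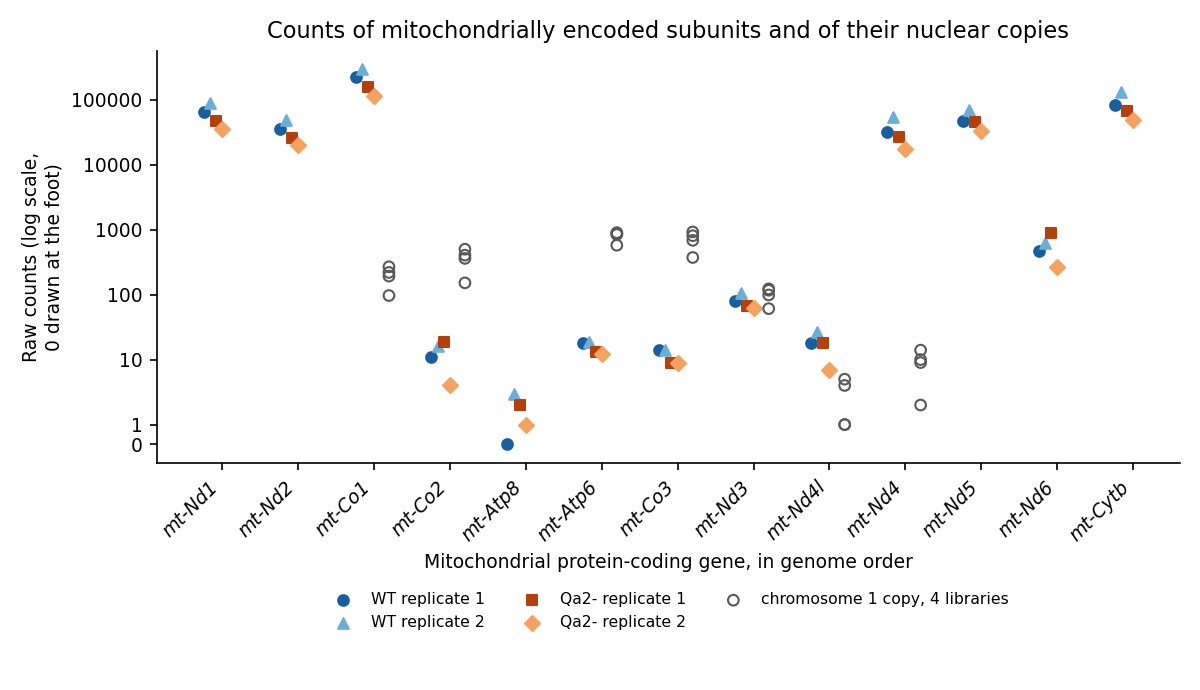
Raw counts (vertical axis, log scale, with 0 drawn at the foot) of the 13 mitochondrial protein-coding genes in genome order; filled symbols are the 4 libraries and open circles the matching pseudogene on chromosome 1 in the 4 libraries. From mt-Co2 to mt-Nd4l no filled symbol exceeds 106 counts, whereas mt-Nd1, mt-Nd2, mt-Co1, mt-Nd4, mt-Nd5 and mt-Cytb have at least 17645 in every library.

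Among the mitochondrial genes that could be read, 5 had similar differences between groups. mt-Nd1, mt-Nd2 and mt-Nd4 encode membrane subunits of complex I, mt-Cytb the cytochrome b of complex III, and mt-Co1 the catalytic subunit of complex IV. Values are CPM on library sizes scaled by TMM. mt-Co1 was at 5588 and 7776 CPM in WT and at 4385 and 3228 in Qa2-. mt-Cytb was at 2111 and 3475 CPM in WT and at 1873 and 1394 in Qa2-. mt-Nd1 was at 1644 and 2349 against 1339 and 1032. In each of these the second WT library was highest and the second Qa2- library lowest, and the groups did not overlap. Of the 8 mitochondrially encoded members, 6 had both WT libraries above both Qa2- libraries in CPM with TMM, against 25.4% of all genes tested, and 6 with library totals alone, against 18.7%. In TPM (counts per kilobase of exon scaled to an equal total in each library) it was 3, against 15.2%. Without mt-Nd3, whose values are no measure of the mRNA, the counts were 5, 5 and 3 of 7.

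The means were 6682 ± 1547 CPM in WT and 3806 ± 818 in Qa2- for mt-Co1 (SD, n = 2 each), 2793 ± 964 and 1634 ± 339 for mt-Cytb, and 1996 ± 498 and 1186 ± 217 for mt-Nd1. Log2 fold changes of WT over Qa2- in the edgeR quasi-likelihood fit were 0.81 ± 0.47 (SE) for mt-Co1, 0.77 ± 0.41 for mt-Cytb, 0.75 ± 0.35 for mt-Nd1, 0.75 ± 0.32 for mt-Nd2 and 0.81 ± 0.40 for mt-Nd4. Without the second WT library they were 0.55 for mt-Co1, 0.37 for mt-Cytb, 0.47 for mt-Nd1, 0.43 for mt-Nd2 and 0.32 for mt-Nd4, and the median of the 8 members went from 0.75 to 0.34 (from 0.75 to 0.37 without mt-Nd3). None passed Benjamini-Hochberg adjustment over all genes, with adjusted p in edgeR between 0.354 for mt-Nd2 and 0.454 for mt-Co1. The 95% intervals of the log2 fold change, -0.38 to 2.005 for mt-Co1 and -0.07 to 1.56 for mt-Nd2, include 0.

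The remaining genes of this genome had other patterns. mt-Nd5 overlapped between groups, with 1166 and 1861 CPM in WT and 1302 and 953 in Qa2- (log2 fold change 0.42 ± 0.37). mt-Nd6, the protein-coding gene of the opposite DNA strand, was lower by far than its neighbours and had its highest value in a Qa2- library, at 11.8 and 16.5 CPM in WT against 25.3 and 7.72 in Qa2-. Its log2 fold change was -0.22 ± 0.57, and it was 0.88 without the first Qa2- library and -0.84 without the second (unadjusted p = 0.044 in the edgeR fit). The end of mt-Nd6 overlaps that of mt-Nd5, and counting by strand keeps them apart. mt-Nd3, within the copied stretch, had 81 and 106 counts in WT and 67 and 63 in Qa2-.

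Differences between groups were smaller in the nuclear members, and most had the higher mean in WT. With the edgeR fit, 0 of the 96 members and 0 of 14492 genes (0%) had an adjusted p under 0.05. The smallest adjusted p among members was 0.281. At an unadjusted p under 0.05, 4 members were higher in WT, against 8.09% of all genes tested, and 0 were higher in Qa2-, against 7.09%. In DESeq2, 1 member, Ndufa4l2, had an adjusted p under 0.05, against 4.83% of all genes. Of the 88 nuclear members, 73 had a log2 fold change above 0, against 7400 of the 14492 genes tested. Their median was 0.18, where it was 0.01 over all genes tested.

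By the order of the libraries, both WT values lay above both Qa2- values in 49 of the 96 members, against 25.4% of all genes tested. The reverse held for 3, against 24.5%. These counts depended on the scaling, since library totals alone gave 28 members against 18.7% of all genes, and TPM gave 23 against 15.2%. Leaving out the first Qa2- library took the median of the nuclear members from 0.18 to 0.06, and leaving out the second took it to 0.30. In that first Qa2- library the nuclear members lay a median of 0.20 below their own mean on the log2 scale, whereas in the other 3 libraries they lay 0.04 to 0.10 above it. The same library was low in the cytosolic ribosomal protein genes, by 0.29, in the mitochondrial ribosomal protein genes, by 0.21, and in the genes for uncoupling and defence against reactive oxygen, by 0.20.

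**Figure D2:**
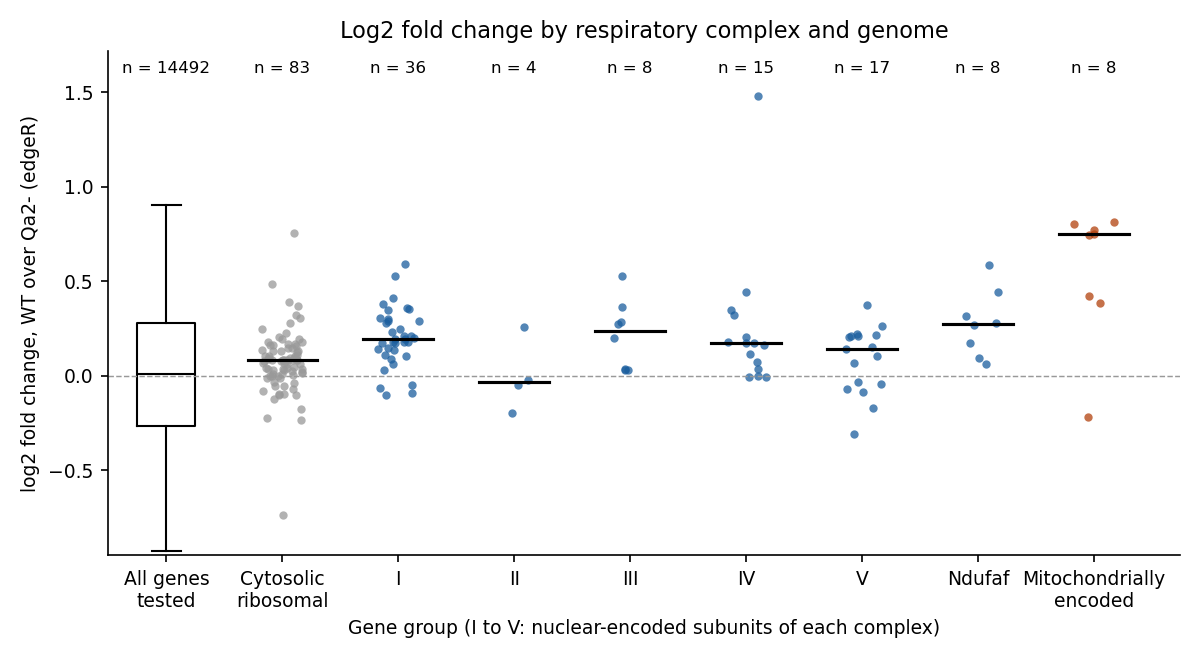
Log2 fold change of WT over Qa2- from the edgeR fit for nuclear-encoded subunits of complexes I to V, the Ndufaf assembly factors, the mitochondrially encoded members, and for comparison 83 cytosolic ribosomal protein genes and all 14492 genes tested (box: quartiles and median, whiskers: percentiles 5 to 95). Black lines are medians; the mitochondrially encoded members have a median of 0.75 the nuclear complexes lie between -0.03 and 0.24, and the Ndufaf genes are at 0.27.

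By complex, the medians of the nuclear subunits were 0.20 for complex I (36 genes), -0.03 for complex II (4), 0.24 for complex III (8), 0.17 for complex IV (15) and 0.14 for complex V (17). The 8 Ndufaf genes, which encode chaperones of complex I assembly and are not part of the finished enzyme, had a median of 0.27. Leaving out 1 library moved these medians: the lowest values, without the first Qa2- library, were 0.06 for complex I, -0.20 for II, 0.19 for III, 0.06 for IV and 0.22 for the Ndufaf genes, and complex V was lowest at 0.04 without the first WT library. Without the second Qa2- library they were 0.36 for complex I, 0.15 for II, 0.27 for III, 0.30 for IV and 0.25 for V, so that complex II turned its sign. All 8 nuclear genes of complex III and 32 of 36 of complex I had a log2 fold change above 0, against 1 of 4 of complex II. Over all genes tested this held for 7400 of 14492. For comparison, the median was 0.08 over 83 cytosolic ribosomal protein genes and 0.11 over 77 mitochondrial ribosomal protein genes. Both WT libraries lay above both Qa2- libraries in 43 of 88 nuclear members, in 20 of the 77 and in 4 of the 83, against 25.4% of all genes. With library totals alone it was 22 of the 88, against 18.7% of all genes.

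Among complex I genes, Ndufa1, an accessory subunit of the membrane arm (chrX:37187588-37191163), had 62.7 and 52.6 CPM in WT and 40.6 and 39.2 in Qa2-. Both WT values lay well above the Qa2- values, and the log2 fold change was 0.53 ± 0.16 (unadjusted p = 0.0205, adjusted p = 0.281, edgeR). Over the alternative settings the log2 fold change of Ndufa1 ranged from 0.37 to 0.65. Its unadjusted p was above 0.05 with the replicate number as a block. Ndufs5, another small accessory subunit (chr4:123712710-123718202), had 25.2 and 28.5 CPM in WT and 20.6 and 19.7 in Qa2-, a log2 fold change of 0.41 ± 0.16 (edgeR unadjusted p = 0.0491, adjusted p = 0.326). Its unadjusted p was above 0.05 with upper-quartile scaling, library totals, the other filters, the robust fit, DESeq2, the replicate block and each library left out. Of its longest transcript, 46.9% is near-identical to the gene BC002163, so that its count is uncertain. Ndufb4, the nuclear complex I gene with the largest log2 fold change (0.59 ± 0.26, and 0.22 without the first WT library), had 19.7 and 12.8 against 10.8 and 10.8 CPM and shares 40.2% of its longest transcript with Ndufb4c.

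Among nuclear genes of complex III the largest log2 fold change was that of Uqcrq (chr11:53427922-53430831), a small ubiquinone-binding subunit. It had 100.8 and 93.0 CPM in WT and 62.3 and 72.1 in Qa2-, with no overlap. The log2 fold change was 0.53 ± 0.16 (edgeR unadjusted p = 0.0211, adjusted p = 0.282). Over the alternative settings the log2 fold change of Uqcrq ranged from 0.38 to 0.64. Its unadjusted p was above 0.05 with library totals alone and with the replicate number as a block. Uqcr11 followed at 0.37 ± 0.16 and Uqcr10 at 0.28 ± 0.14. The Rieske iron-sulphur protein Uqcrfs1 and the large core proteins Uqcrc1 and Uqcrc2 lay between 0.03 and 0.04, and their groups overlapped.

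The same comparison was made with a fixed list of core subunits of complexes I, II, III and V. It held all 4 genes of complex II and no nuclear gene of complex IV. The 17 catalytic and core nuclear subunits of this list centred on a log2 fold change of 0.03 (median, with 9 above 0 and 8 below). The 63 other nuclear subunits had a median of 0.20, with 56 above 0, against 7400 of the 14492 genes tested. Of the core set 3 genes (17.6%) had both WT libraries on top, and of the others 36 (57.1%), against 25.4% of all genes. Ndufv2, a 2Fe-2S protein of the complex I matrix arm, was the highest of the core set at 0.38 ± 0.16, with 86.0 and 98.8 CPM in WT and 69.6 and 72.6 in Qa2-. The core set also has the longer exon length, a median of 2313 against 1465 bases.

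The genes below 0 were few. Sdha, the flavoprotein of complex II, had 169.0 and 177.5 CPM in WT and 182.5 and 214.0 in Qa2-. Atp5a1, the alpha subunit of the ATP synthase head, had 479.5 and 490.2 against 508.6 and 581.6 CPM. Atp5s, a low-level factor of ATP synthase, had 4.41 and 3.74 against 4.99 and 5.12 CPM. In these 3 genes both Qa2- libraries lay above both WT libraries, with log2 fold changes of -0.19 ± 0.18, -0.17 ± 0.22 and -0.31 ± 0.27 that did not pass the test (adjusted p in edgeR of 0.639, 0.744 and 0.616). The catalytic beta subunit Atp5b overlapped between groups, at 737.4 and 722.4 against 734.1 and 812.5 CPM.

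Among the 8 Ndufaf genes the largest log2 fold change was that of Ndufaf2, at 9.62 and 7.32 CPM in WT and 5.92 and 5.37 in Qa2- (log2 fold change 0.58 ± 0.26). Ndufaf8 followed at 0.44 ± 0.24, and Ndufaf3 was lowest at 0.06 ± 0.20. Of 39 assembly factors that the symbol rule does not take, such as Tmem70, which acts in the assembly of ATP synthase, 4 (10.3%) were higher in WT at an unadjusted p under 0.05, against 8.09% of all genes, and 0 were higher in Qa2-, with a median of 0.03. Tmem70 had 69.3 and 87.6 CPM in WT and 52.0 and 44.8 in Qa2- (log2 fold change 0.70 ± 0.18), and Higd1a, an oxygen-responsive factor that associates with complex IV, had 81.6 and 24.6 against 19.3 and 19.6 (1.45 ± 0.55). Without the first WT library the log2 fold change of Higd1a was 0.31.

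The largest log2 fold change of all members was that of Ndufa4l2 (chr10:127514967-127517154), a paralogue of the complex IV subunit Ndufa4 that is known to be induced in low oxygen and to be abundant in vascular mural cells. It was at 34.8 and 14.8 CPM in WT and at 10.2 and 7.60 in Qa2-. The groups did not overlap, yet the first WT library was more than the second by a wider margin than separated the second from the Qa2- libraries. The means were 24.8 ± 14.1 and 8.90 ± 1.84 CPM (SD, n = 2), and the log2 fold change was 1.48 ± 0.44 (edgeR unadjusted p = 0.0199, adjusted p = 0.281). Without the first WT library it was 0.71, and with DESeq2 the adjusted p was 0.0323. Its paralogue Ndufa4 was at 102.4 and 114.8 CPM in WT and at 88.4 and 103.6 in Qa2- (0.18 ± 0.17).

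Of 14 other genes known to respond to oxygen, 5 were higher in WT and 2 higher in Qa2- at an unadjusted p under 0.05, against 8.09% and 7.09% of all genes, with a median log2 fold change of 0.18. The 2 were Vegfa and Car9, and Car9 reached the filter only through the Qa2- libraries and so had to differ. Adm, which encodes the vasoactive peptide adrenomedullin, was at 50.3 and 24.3 CPM in WT and at 12.6 and 12.3 in Qa2- (1.58 ± 0.37, and 0.94 without the first WT library). Vegfa, the endothelial growth factor, was at 46.7 and 47.8 against 88.8 and 76.7 (-0.81 ± 0.15, adjusted p = 0.246 in edgeR). All 7 endothelial markers were higher in WT at an unadjusted p under 0.05, and their summed level was 1175 and 1041 CPM in WT and 539 and 506 in Qa2-. The part of the vessel content in the Ndufa4l2 value was not tested. In RNA from whole tissue, fewer cells of a type and less RNA per cell cannot be told apart.

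Several complex IV and V subunits exist as isoforms from separate genes, and here the uterus showed mostly the general body forms. Levels between genes are given in TPM. Cox6a1 averaged 879 TPM over the 4 libraries, Cox8a 623 and Cox4i1 572. Cox6b2, the other isoform of Cox6b1, passed the filter and averaged 15.3 against 535.5 for Cox6b1. The heart and skeletal muscle forms Cox6a2 and Cox8b did not pass the filter, and Cox8b averaged 1.0, and Cox7a1, the muscle form of Cox7a, averaged 4.80 against 199 for Cox7a2. Cox7a1 reached 1 CPM in 1 library, the second WT library, and so lay just outside the filter.

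Cox4i2, the form of Cox4 that is known from lung and oxygen-sensing cells, averaged 8.27, and the ratio of Cox4i1 to Cox4i2 in TPM was 81.8 and 50.7 in WT and 66.9 and 86.9 in Qa2-. The groups overlapped. The ratio of Ndufa4 to Ndufa4l2 was 2.33 and 6.15 in WT and 6.87 and 10.8 in Qa2-, with both WT libraries lower. Atp5g1, Atp5g2 and Atp5g3 encode the same mature c-ring protein of ATP synthase. Atp5g3 was the most abundant at a mean of 216, followed by Atp5g2 at 86.8 and Atp5g1 at 40.7, and log2 fold changes were 0.21, -0.07 and -0.04. Cox7a2l, a factor that joins complexes III and IV, was at 195.1 and 149.7 CPM in WT and at 114.6 and 156.3 in Qa2-, and overlapped.

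**Figure D3:**
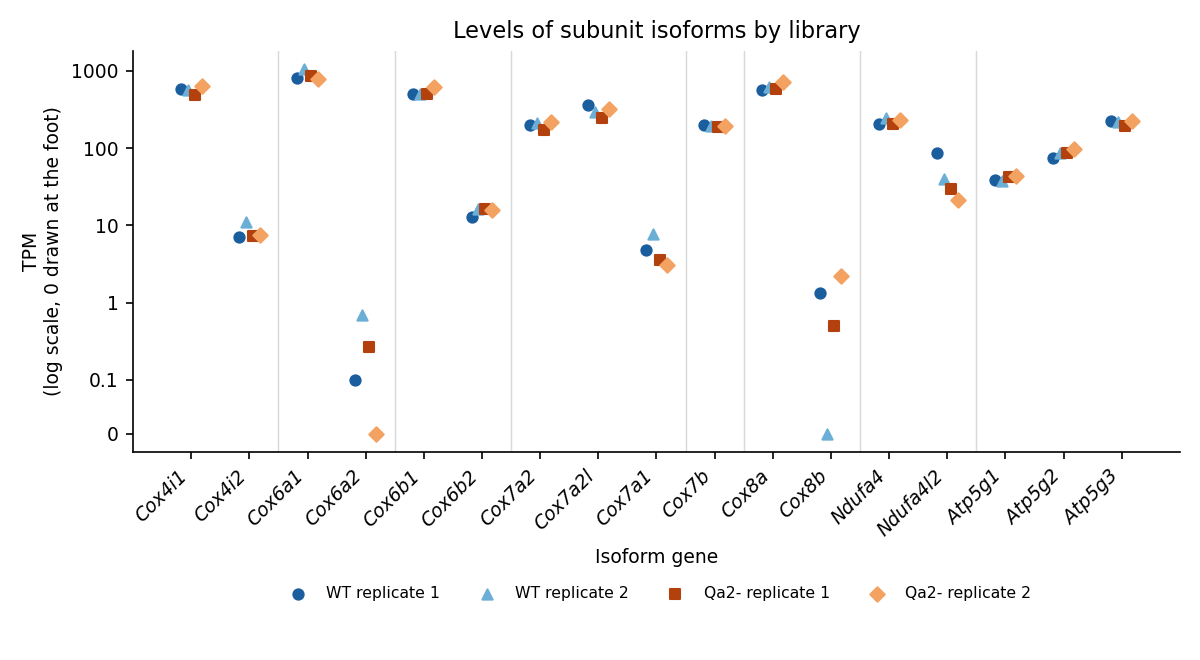
Level of isoform genes in TPM, counts per kilobase of exon scaled to an equal total in each library (log scale, 0 drawn at the foot) in the 4 libraries, with vertical lines between gene families. Ndufa4l2 spans 21.2 to 86.8 TPM, Cox6a2 and Cox8b stay at or below 2.19, and Cox4i2 and Cox7a1 stay below Cox4i1 and Cox7a2 in every library.

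The differences were read beside gene length, because the log2 fold change varied with exon length over all genes tested. Over all genes tested, the median log2 fold change was 0.07 below 1 kb of exon length (643 genes), 0.18 from 1 to 2 kb (1585), 0.09 from 2 to 4 kb (4364) and -0.07 above 4 kb (7900). For nuclear members of the same classes it was 0.28 (19 genes), 0.18 (36), 0.16 (22) and 0.09 (11). From 1 to 2 kb, the class with the most members (36 of 88), the median of the members was thus that of all genes. The members exceeded their class below 1 kb and above 2 kb. Across the 88 nuclear members, which share the same 4 libraries, Spearman's rho of log2 fold change with exon length was -0.29, and it was -0.07 with the level per length.

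After the lowess trend of log2 fold change on exon length over all genes was subtracted, the median of the nuclear members was 0.05 in place of 0.18. Complex I kept 0.08, complex III 0.07 and the Ndufaf genes 0.18, while complexes IV and V were at 0.00 and 0.01. Complex II was at -0.19. The mitochondrially encoded members were at 0.59 in place of 0.75. The core set of nuclear subunits was at -0.07 and the other subunits at 0.08 on this scale.

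**Figure D4:**
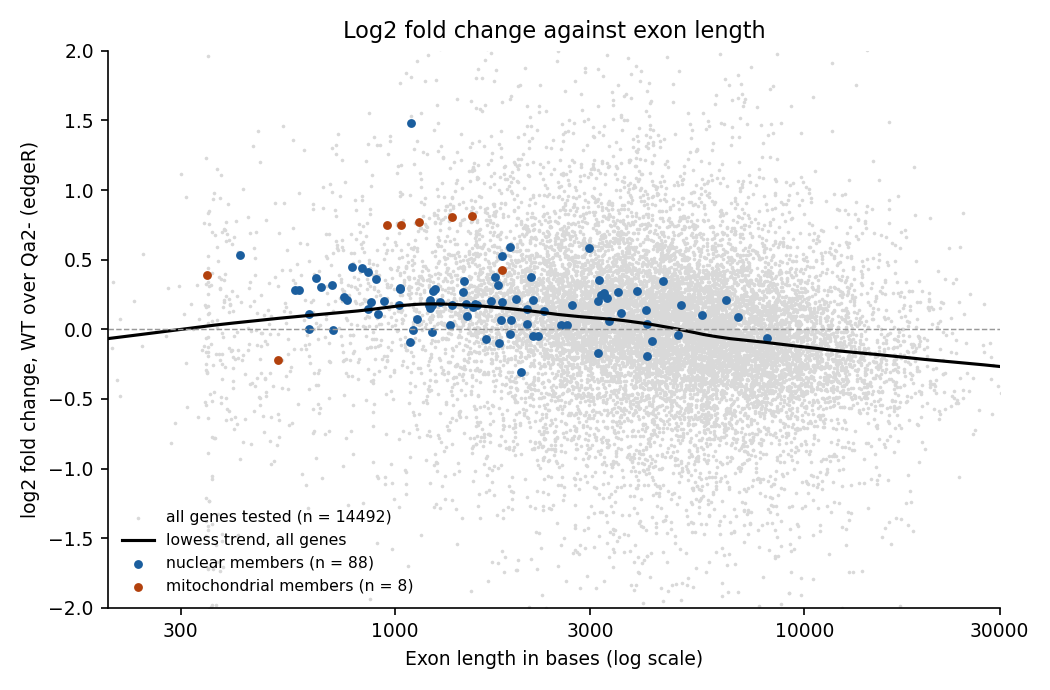
Log2 fold change of WT over Qa2- (vertical axis, shown from -2 to 2, so that more extreme genes are outside the frame) against exon length (log scale) for all 14492 genes tested, with their lowess trend, and for the 88 nuclear and 8 mitochondrially encoded members. The trend is highest from 1 to 2 kb, where 36 nuclear members lie.

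Summed expression was read for each genome in each library. The 13 mitochondrial genes took 1.19% and 1.74% of all counts in the WT libraries and 1.06% and 0.809% in the Qa2- libraries. The 80 nuclear subunit genes took 0.738% and 0.697% in WT and 0.642% and 0.782% in Qa2-. On TMM-scaled sizes the mitochondrial sum was 15196 ± 4252 CPM in WT and 9054 ± 1920 in Qa2-, and the nuclear sum was 7415 ± 188 and 6881 ± 792 (SD, n = 2 each). Per length, the nuclear sum was 13162 ± 351 TPM in WT and 12953 ± 1147 in Qa2-, a difference smaller than the spread within Qa2-.

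The ratio of mitochondrial to nuclear subunit counts was 1.61 and 2.50 in WT and 1.65 and 1.03 in Qa2-. The first library of each group had nearly the same ratio, and the groups overlapped. With 2 against 2 libraries an exact two-sided permutation test cannot go below p = 0.33, and none was run. The ratio leaves out read pairs that match the copied stretch equally well, and is no measure of the whole genome's output.

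The libraries also differed in cell type markers. The summed level of the 9 myometrium markers was 27383 and 45522 CPM in WT and 24253 and 12962 in Qa2-. Its order over the 4 libraries was that of the mitochondrial sum, and the erythroid sum given below had this order too. At an unadjusted p under 0.05 in edgeR, 0 of the 9 myometrium markers were higher in WT and 0 in Qa2-. Markers of uterine epithelium, 9 genes, summed to 3474 and 1929 CPM in WT and 3447 and 7867 in Qa2-, and the groups overlapped. Without Ltf, left out after its values were seen because it made up 4932 CPM of the highest sum, they were at 2126 and 1304 in WT and 3033 and 2935 in Qa2-. At an unadjusted p under 0.05, 3 of the 9 were higher in Qa2-, against 7.09% of all genes, and 1 of the 3, Foxa2, reached the filter only through the Qa2- libraries. Markers of uterine stroma and decidua, 10 genes, summed to 5160 and 4183 CPM in WT and 3145 and 2298 in Qa2-. At an unadjusted p under 0.05, 3 of these 10 were higher in WT and 0 in Qa2-, against 8.09% and 7.09% of all genes. The 9 leukocyte markers summed to 315 and 438 CPM in WT against 342 and 250 in Qa2-. At an unadjusted p under 0.05, 2 of the 6 tested were higher in WT and 0 in Qa2-, against 8.09% and 7.09% of all genes. Ptprc had both Qa2- libraries on top, at 33.5 and 38.7 CPM in WT and 44.6 and 45.9 in Qa2-. The 8 trophoblast markers summed to 20.7 CPM in the second WT library and to 0.947 to 4.65 in the other 3. Erythroid markers summed to 364 and 723 CPM in WT and 116 and 75.7 in Qa2-, and all 5 of those tested were higher in WT at an unadjusted p under 0.05, against 8.09% of all genes. The 6 markers of visceral yolk sac summed to 494 CPM in the first Qa2- library against 8.42 to 45.4 in the other 3. Their part in the mitochondrial and nuclear values was not tested.

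**Figure D5:**
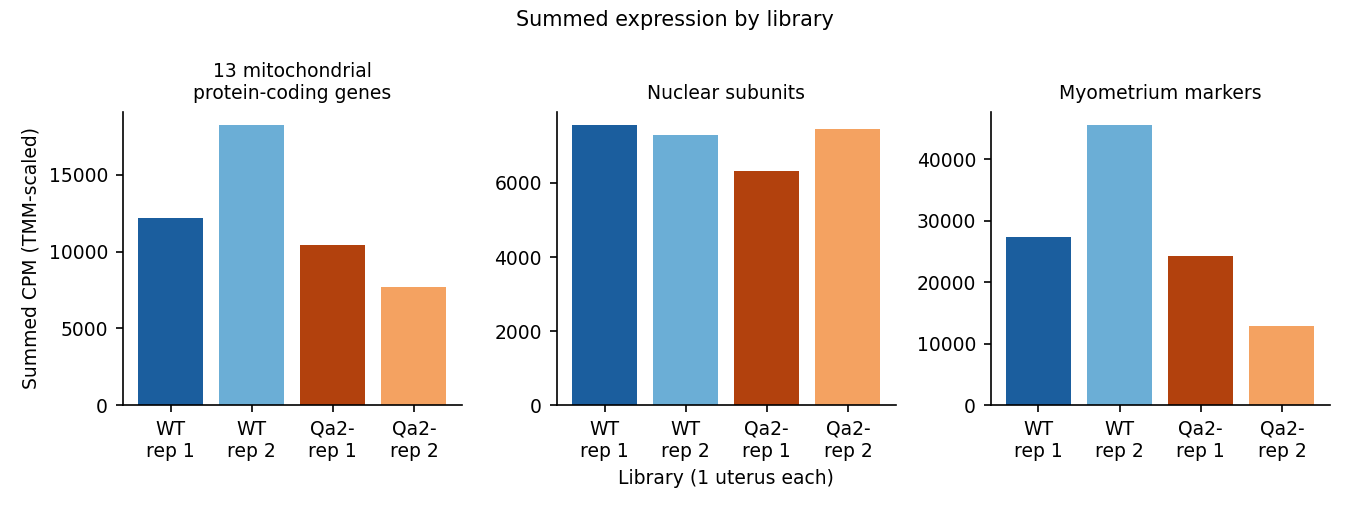
Summed CPM on TMM-scaled library sizes in each library for the 13 mitochondrial protein-coding genes, the 80 nuclear subunit genes and the 9 myometrium markers, each panel with its own axis from 0. The mitochondrial and myometrium sums are highest in the second WT library and lowest in the second Qa2- library, whereas the nuclear sum ranges from 6321 to 7548.

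Genes that serve the mitochondrial genome and its transcripts lay on both sides of 0. Of 23 genes for copying of mitochondrial DNA and for handling of its transcripts, 0 were higher in WT and 1 was higher in Qa2- at an unadjusted p under 0.05, against 8.09% and 7.09% of all genes, with a median log2 fold change of -0.04. Both WT libraries were on top in 5 of them and both Qa2- libraries in 5, against 25.4% and 24.5% of all genes. The gene higher in Qa2- was Twnk, the helicase of mitochondrial DNA, at 24.2 and 22.8 CPM in WT and 33.4 and 43.8 in Qa2- (log2 fold change -0.72 ± 0.19, edgeR adjusted p = 0.271). Polg2, the accessory subunit of the mitochondrial DNA polymerase, was at 3.99 and 3.02 against 4.79 and 4.95 (-0.47 ± 0.30). At the other end, the topoisomerase Top1mt was at 6.85 and 7.77 CPM in WT and 5.41 and 5.49 in Qa2- (0.42 ± 0.24), and the RNA-binding protein Slirp at 18.1 and 16.6 against 13.53 and 14.52 (0.31 ± 0.18).

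Of 14 nuclear regulators of mitochondrial genes, 0 were higher in WT and 3 higher in Qa2- at an unadjusted p under 0.05, against 8.09% and 7.09% of all genes, with a median of -0.17. Ppargc1a, a coactivator known for driving mitochondrial biogenesis, was low throughout, at 1.62 and 1.01 CPM in WT and 2.20 and 4.66 in Qa2- (-1.38 ± 0.52, adjusted p = 0.318 in edgeR). The lipid-sensing receptor Ppara was at 0.349 and 0.451 against 1.44 and 1.12 CPM (-1.67 ± 0.45). Ppara reached the filter only through the Qa2- libraries and so had to differ, and without it 2 regulators were higher in Qa2-.

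Neighbouring energy pathways are given by the same counts. Of 16 glycolysis genes, 4 were higher in WT and 0 higher in Qa2- at an unadjusted p under 0.05, against 8.09% and 7.09% of all genes, with a median log2 fold change of 0.38. The phosphofructokinases Pfkp (0.92 ± 0.31) and Pfkl (0.72 ± 0.19) had the largest values. Of 16 genes of the citric acid cycle and pyruvate dehydrogenase, 0 passed in either direction and the median was -0.02. Of 21 genes for electron carriers and metabolite exchange, 1 was higher in WT and 1 in Qa2-. These were Slc25a4, the adenine nucleotide carrier of muscle, at 348.5 and 367.9 CPM in WT and 261.2 and 229.4 in Qa2- (0.55 ± 0.20), and Coq8a, which supports ubiquinone synthesis, at 9.87 and 8.16 against 15.1 and 27.4 (-1.24 ± 0.33). Of 10 genes for uncoupling and defence against reactive oxygen, 0 passed in either direction, with a median of 0.12.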

How the data were processed

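Poly(A)-selected RNA of whole uteri was sequenced as directional paired-end 100 bp libraries. The deposited values are raw counts per gene, 1 file per library. The submitters' processing notes name GRCm38.p6, STAR 2.7.3a and Subread featureCounts 2.0.0, and per the file headers exons were summed by gene with a strand setting of 2, a mapping quality of at least 3 and both ends mapped, without multi-mapping pairs. Symbols and biotypes came from GENCODE M21 and matched 55240 of 55421 gene IDs.

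Genes that reached 1 CPM in 2 or more libraries were tested with edgeR 4.0.16 (R 4.3.3; TMM, quasi-likelihood, no covariates), with Benjamini-Hochberg adjustment over all genes tested; DESeq2 1.42.0 was an alternative. The filter kept 14492 genes; the study's methods state the same filter with a larger number kept, and this difference, which bears on every share of all genes, was not resolved. No member reached the filter through 1 group alone. The scripts were tested on simulated data. Copies are transcripts of other genes matching over at least 100 bases at 98% identity or more. Lowess used a span of 0.3. All 4 libraries entered each fit. Intervals and SDs over 2 libraries are imprecise. Named genes were all mitochondrial members, the 3 highest and lowest of each complex, also over its nuclear genes alone (a reading added after the values were seen), isoform and core lists, and the 2 highest and 2 lowest of each other list; not all are printed. The members and lists were chosen with earlier results of these data known. Same-numbered libraries did not deviate together (correlation -0.366).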

Additional observations from a re-analysis of the deposited data

How the results depend on the processing

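The number of members higher in WT at an unadjusted p under 0.05, 4 in the edgeR fit, was 2 with library totals alone, 9 without a filter, 8 with DESeq2 (5.88%, 5.79% and 8.59% of all genes in those fits) and 0 at a threshold of 0.01, and leaving out 1 library at a time gave 1 to 4. The number higher in Qa2-, 0, was 0 to 1 on leaving out libraries, the 1 being mt-Nd6 without the second Qa2- library. At an adjusted p under 0.05 DESeq2 gave 1 member, and the other fits, those without 1 library among them, gave 0. With the replicate number as a block the count at an unadjusted p under 0.05 was 1 (4.95% of all genes). With the numbers crossed, a block added after seeing the data, it was 15 (12.9% of all genes). Nothing states what the numbers mark, such as a shared litter or day, and same-numbered libraries had a deviation correlation of -0.366.

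Medians of log2 fold change over fits without 1 library ranged from 0.34 to 0.97 for the mitochondrially encoded members (lowest without the second WT library), from 0.058 to 0.302 for all nuclear members, from 0.063 to 0.365 for complex I, from -0.20 to 0.15 for II, from 0.19 to 0.27 for III, from 0.055 to 0.297 for IV, from 0.035 to 0.247 for V and from 0.22 to 0.32 for the Ndufaf genes. Library totals alone gave 0.081 for all nuclear members and 0.18 for the Ndufaf genes, with a median of all genes of -0.08. By complex they gave 0.097 for I, -0.132 for II, 0.14 for III, 0.075 for IV and 0.044 for V. Subtraction of the length trend gave 0.047 for the nuclear members, -0.188 for complex II, 0.073 for III, -0.002 for IV, 0.008 for V and 0.18 for the Ndufaf genes. The count of members with both WT libraries on top, 49, was 28 with library totals alone and 23 per length. The shares of all genes were 25.4%, 18.7% and 15.2%. The count of members with both Qa2- libraries on top, 3, was 5 and 10. Over all 14492 genes tested that order held for 3556, for 4639 with library totals alone and for 5266 per length. In the comparison of lengths, the median level of nuclear subunits was 119.8 TPM, and 138.9 with the longest transcript as length. As the median of gene means over the 4 libraries, the level of the 80 nuclear subunit genes was 122 TPM. The cause of these differences was not tested. Of 1350 values of 97 named genes under alternatives, 6 crossed an adjusted p of 0.05, which none passed in the edgeR fit: Ndufa4l2, Adm, Vegfa and Coq8a with DESeq2, and Adm and Higd1a without the second WT library (adjusted p = 0.0285 and 0.0206 in edgeR); 71 genes kept their sign throughout.

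Without 1 library, a group of 1 is assumed to vary like the other. Shares of counts by genome ranged on leaving out libraries from 1.19% to 1.74% in WT and from 0.81% to 1.06% in Qa2-, and the ratio of the genomes from 1.61 to 2.50 and from 1.03 to 1.65. With 2 libraries per group, the median SE of a nuclear member was 0.17 on the log2 scale, beside a median difference of 0.18.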
